A study of Homo sapiens with 6 samples.

Results

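The BCL2 family members described here are 10 genes chosen by symbol from the 57773 genes of the count table: BCL2, BCL2L1, MCL1, BAX, BAK1, BID, BAD, BBC3, PMAIP1 and BCL2L11. RNA was sequenced from 6 subcutaneous tumours that PATU cells, a human cell line of pancreatic ductal adenocarcinoma, had formed in nude mice. The cells, named PATU-ishME3, carried an inducible short hairpin against ME3, a mitochondrial malic enzyme. The study's title concerns deletion of ME2, the related mitochondrial enzyme, and the labels do not give the ME2 genotype of these cells. The 2 Dox+ tumours were on doxycycline, which induces the hairpin, and the 4 Dox- tumours were off it. All 6 tumours share the cell line and the construct. No tumour carries a control hairpin, so doxycycline, induction of a hairpin and loss of ME3 cannot be told apart. Host mice keep their own stromal, myeloid and endothelial cells, and the labels do not give the age of the mice, the length of treatment or whether the tumours came from separate mice.

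Proteins of the BCL2 family decide whether the outer mitochondrial membrane stays intact. Guardians such as BCL-XL and MCL1 hold the effectors BAX and BAK in check, and BH3-only proteins, which share with the family a short helix that fits a groove on the guardians, either occupy the guardians or activate the effectors. Once the effectors form pores, cytochrome c leaves the mitochondria and caspases are activated. Much of this control acts on the proteins (cleavage of BID, phosphorylation of BAD, rapid turnover of MCL1), which RNA counts do not measure.

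No member passed the test between Dox+ and Dox- tumours. With edgeR's quasi-likelihood fit and a threshold of 0.05 on the adjusted p, 0 of the 10 members were called, where 1.06% of the 21308 genes tested were called (225 genes). The smallest adjusted p among the members was 0.356, for BAD, and the largest was 0.919, for BBC3. At an unadjusted p under 0.05 the count was also 0, against 14.3% of the genes tested. BAD (unadjusted p = 0.0516, edgeR) and BCL2L1 (unadjusted p = 0.0553, edgeR) lay just above that cut. Under some of the alternative settings given at the end, members fell below it. DESeq2 and limma voom likewise called 0 members. The median log2 fold change of the members, Dox+ over Dox-, was -0.05, and that of the genes tested was -0.003. The most abundant member was MCL1 in every tumour, and the groups did not overlap for BCL2L1, higher in Dox+, and BAD, lower in Dox+. Of all genes tested, 23.0% did not overlap in either direction.

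The libraries held 24529707 and 25731887 counts in Dox+ tumours 1 and 2 and 23855338 to 26885699 counts in Dox- tumours. The targeted gene ME3 had 33.3 and 28.5 CPM (counts scaled to library size) in Dox+ tumours and 37.9 to 44.2 CPM in Dox- tumours, a log2 fold change of -0.41 (SE 0.12) that did not pass the test over all genes (adjusted p = 0.148, edgeR). Dox+ tumour 1 stood apart, with 0.554% of its counts from the mitochondrial genome and 4.08% from the nuclear RNAs MALAT1 and NEAT1. These shares were 0.281% and 1.77% in Dox+ tumour 2, and 0.242% to 0.304% and 1.48% to 2.33% in Dox- tumours. Summed over 8 epithelial markers the level was 1111 and 1283 CPM in Dox+ tumours and 1370 to 1604 CPM in Dox- tumours. KRT8 and KRT18 made up most of it, while KRT19, a defining ductal keratin, lay between 0 and 0.0387 CPM. The values of EPCAM and CLDN7 lay the other way round, EPCAM with 33.4 and 39.3 CPM in Dox+ tumours and 24.7 to 30.1 CPM in Dox- tumours, and CLDN7 with 2.29 and 3.85 CPM in Dox+ tumours and 1.12 to 1.89 CPM in Dox- tumours. Of the 7 epithelial markers tested 4 had a log2 fold change above 0. Of 10 myeloid markers, summing to 32.3 and 40.4 CPM in Dox+ tumours and 20.5 to 42.6 CPM in Dox- tumours, C1QA, C1QB and TYROBP were at 0. Lymphoid markers, 7 genes, summed to at most 0.527 CPM in Dox+ tumours and 1.07 CPM in Dox- tumours, with CD3D at 0. The 7 endothelial markers in the table summed to 7.71 and 7.94 CPM in Dox+ tumours, below the 9.499 to 11.2 CPM of Dox- tumours. The 8 fibroblast markers summed to 131 and 318 CPM in Dox+ tumours and 146 to 801 CPM in Dox- tumours. The 10 skeletal muscle markers summed to 209 and 178 CPM in Dox+ tumours and to 175 to 2068 CPM in Dox- tumours, with the highest value in Dox- tumour 4. No marker was called. The part of host reads in the members' counts was not tested, and in bulk tumours fewer cells of a type and less RNA per cell cannot be told apart.

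Per length, MCL1 was the leading transcript of the family, followed by BCL2L1. Levels were set on the scale of CPM per kb of exon sequence, since raw counts favour long genes. MCL1 averaged 117 ± 1.44 CPM per kb in Dox+ tumours (SD, n = 2) and 120 ± 6.82 CPM per kb in Dox- tumours (SD, n = 4), which was 50.2% and 52.0% of the sum over the 10 members. BCL2L1 averaged 55.2 ± 4.52 CPM per kb in Dox+ tumours (SD, n = 2) and 48.2 ± 1.63 CPM per kb in Dox- tumours (SD, n = 4), or 23.8% and 20.8% of the sum. BCL2 was the lowest member in each of the 6 tumours. It averaged 0.233 ± 0.0455 CPM per kb in Dox+ tumours (SD, n = 2) and 0.277 ± 0.0938 CPM per kb in Dox- tumours (SD, n = 4).

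**Figure D1:**
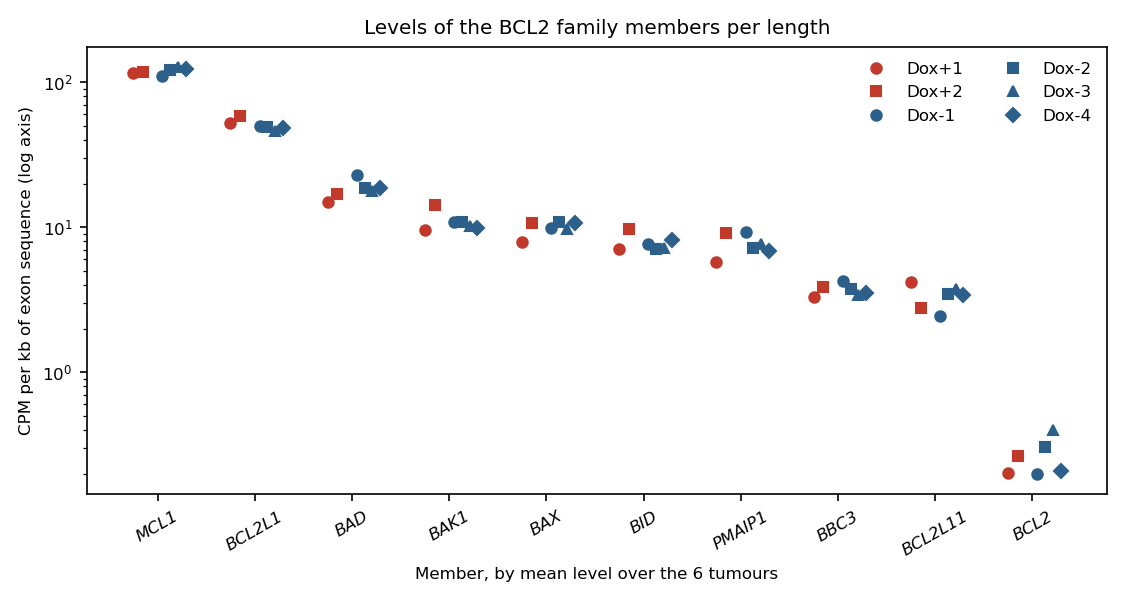
Level of each member in CPM per kb of exon sequence (log axis), 1 point per tumour, Dox+ tumours in red to the left of Dox- tumours in blue, with members ordered by their mean over the 6 tumours. MCL1, at 111 to 126, lies above BCL2L1, at 46.0 to 58.4, in every tumour, and BCL2, at 0.199 to 0.399, lies below all other members.

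Between these ends the order was BAD, BAK1, BAX, BID, PMAIP1, BBC3 and BCL2L11. BAD, with 14.9 to 22.9 CPM per kb over the 6 tumours, did not overlap with its neighbours on either side. BAK1 (9.61 to 14.2) and BAX (7.94 to 10.9) overlapped, and BAK1 was the higher of the pair in 4 of 6 tumours. BID (7.03 to 9.77) and PMAIP1 (5.74 to 9.33) overlapped too, with BID higher in 3 of 6 tumours, so their order is not resolved. The range of BAX also overlapped with that of BID, although BAX was higher in 6 of 6 tumours. BBC3 (3.31 to 4.26) and BCL2L11 (2.44 to 4.20) formed a last overlapping pair, BBC3 being higher in 4 of 6 tumours. The lengths are unions of all annotated exons, so a member with long alternative exons, such as BCL2 with 11.8 kb, is placed lower than its main transcript alone would be.

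**Figure D2:**
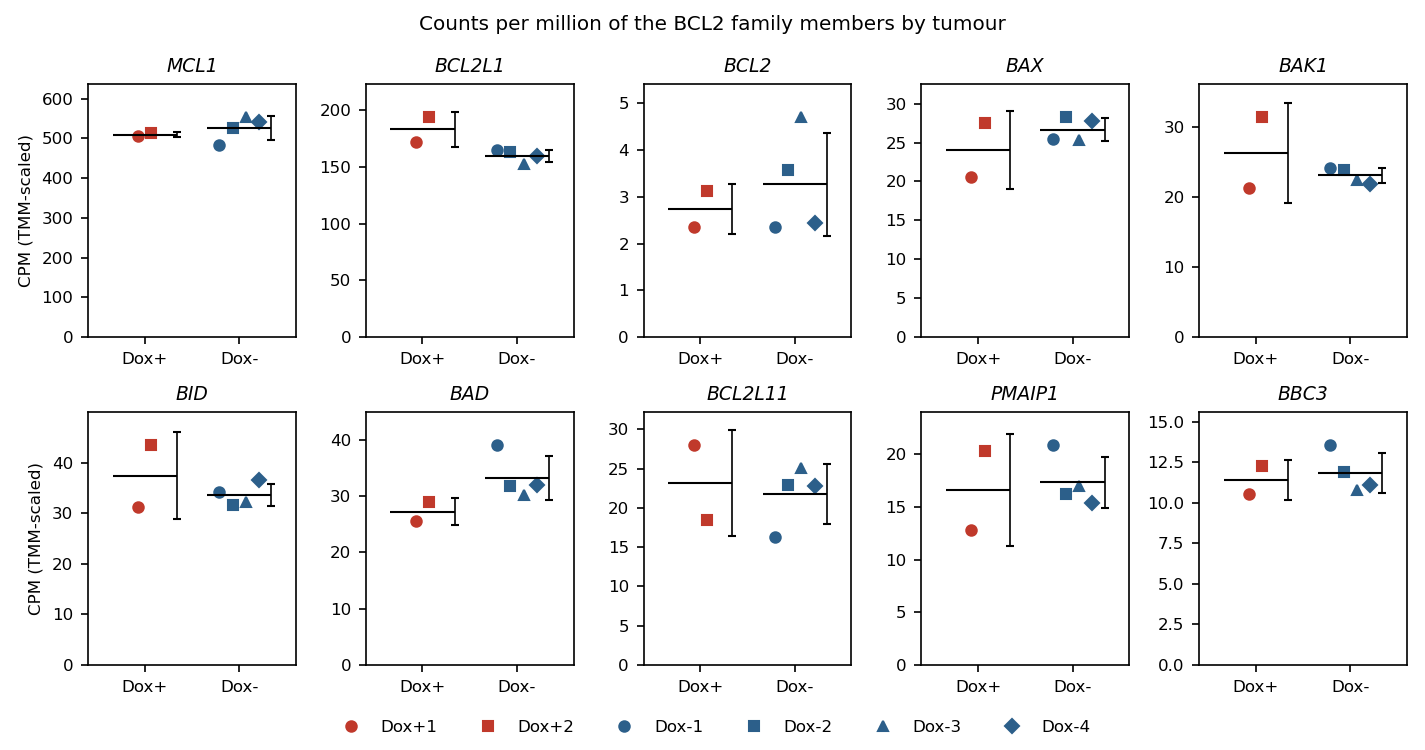
CPM of the 10 members, 1 point per tumour, Dox+ (red) left of Dox- (blue), with the mean as a line and the SD as a bar, guardians first, then effectors, then BH3-only genes. The Dox+ points lie above the Dox- points for BCL2L1 (172 and 193 against 152 to 165) and below them for BAD (25.5 and 28.9 against 30.3 to 39.0), and on both sides of them for BAK1 and BID.

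Among the guardians within the 10 members, BCL2L1 was the one whose Dox+ tumours both lay above the Dox- tumours. It encodes BCL-XL, which binds BAX, BAK and several BH3-only proteins. BCL2L1 was at 172 and 193 CPM in Dox+ tumours 1 and 2, against 165, 163, 152 and 159 CPM in Dox- tumours 1 to 4. Both Dox+ values were above the highest Dox- value, and the groups did not overlap. Dox+ over Dox-, the log2 fold change was 0.20 (SE 0.09, 95% interval -0.01 to 0.40, adjusted p = 0.367, edgeR), a fold of 1.14. Permuted exactly over its 15 possible splits and read two-sided, this difference had p = 0.0667, and no smaller p can be reached with 2 tumours against 4. Of all genes tested, 11.5% had Dox+ values wholly above the Dox- values, and 1 of the 10 members did. BCL2L1 shares 1424 bases of its 3.314 kb of exon sequence with the antisense gene ABALON on the opposite strand. The count table has no row under ABALON's identifier, and the strand setting of the counting is not given, so reads there cannot be assigned.

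MCL1, the short-lived guardian that holds BAK and is bound by NOXA and BIM, varied least of the 10 members across the 6 tumours. It was at 505 and 514 CPM in Dox+ tumours, against 484, 527, 553 and 541 CPM in Dox- tumours. The Dox+ tumours lay inside the Dox- range, and the highest of the 6 tumours exceeded the lowest 1.14-fold. Its log2 fold change was -0.05 (SE 0.10, 95% interval -0.27 to 0.17, adjusted p = 0.88, edgeR). That interval spans folds of 0.831 to 1.13.

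BCL2, the founding guardian, was counted at low depth, with 61 and 77 counts in Dox+ tumours and 61 to 114 counts in Dox- tumours. This gave 2.36 and 3.12 CPM in Dox+ tumours, against 2.35, 3.57, 4.69 and 2.44 CPM in Dox- tumours. Both Dox+ tumours fell within the Dox- range, which itself spanned 2.00-fold. The 95% interval of the log2 fold change, -0.98 to 0.48 (folds of 0.507 to 1.39), was the widest of the 10 members (adjusted p = 0.79, edgeR). The coefficient of variation of BCL2 among Dox- tumours was 33.8%, against a median of 20.1% for genes of like abundance (within 1 log2 CPM).

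The effectors BAX and BAK1 did not pass the test, and for both the Dox+ tumours differed from each other more than the Dox- tumours did. BAX encodes a cytosolic protein that moves to mitochondria when activated. BAX was at 20.5 and 27.5 CPM in Dox+ tumours, against 25.4, 28.2, 25.3 and 27.7 CPM in Dox- tumours. Dox+ tumour 1 was below all Dox- tumours and Dox+ tumour 2 was among them. The log2 fold change was -0.15 (SE 0.14, adjusted p = 0.68, edgeR), and it was 0.05 without Dox+ tumour 1 and -0.38 without Dox+ tumour 2.

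The promoter window of BAX is shown for a feature that the choice of members did not use. It is taken from RefSeq on GRCh38.p14 (chr19:48954625-48954924, plus strand, 250 bases before to 50 bases after the start), whereas the counts were made on hg19.
BAX: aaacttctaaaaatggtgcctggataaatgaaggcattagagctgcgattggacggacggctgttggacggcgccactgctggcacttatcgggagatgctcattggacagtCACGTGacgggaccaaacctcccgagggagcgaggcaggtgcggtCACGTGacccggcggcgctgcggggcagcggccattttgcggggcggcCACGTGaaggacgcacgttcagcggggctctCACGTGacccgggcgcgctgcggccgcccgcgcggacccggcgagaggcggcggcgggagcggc
The capitals mark exact matches to CACGTG, the E-box read by MYC, MAX, USF and other basic helix-loop-helix factors, searched on both strands (the word is its own complement). BAX held 4 matches, and 5 of 35116 RefSeq promoter windows, 0.014%, held at least 4. This was the largest count of any word searched in the 15 windows found for 9 members. The share thus stands beside a maximum picked after the search. At least 1 match was found in 7.26% of windows, among them windows of BBC3 and BID. Such a match is a description of the letters and not a site shown to be bound.

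BAK1, whose protein resides in the outer mitochondrial membrane, was at 21.3 and 31.3 CPM in Dox+ tumours, against 24.04, 23.9, 22.4 and 21.9 CPM in Dox- tumours. Dox+ tumour 1 lay below all Dox- tumours and Dox+ tumour 2 above all of them. The log2 fold change was 0.19 (SE 0.15, adjusted p = 0.625, edgeR), and it was 0.44 without Dox+ tumour 1 and -0.12 without Dox+ tumour 2. The pseudogene BAK1P1, which resembles BAK1, had 31 and 29 counts in Dox+ tumours and 20 to 34 counts in Dox- tumours, while BAK1 itself had 549 and 773 counts in Dox+ tumours.

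Of the BH3-only genes, BAD was the one whose groups did not overlap. BAD encodes a protein that occupies BCL-XL and BCL2 unless it is phosphorylated and held by 14-3-3 proteins. BAD was at 25.5 and 28.9 CPM in Dox+ tumours, against 39.0, 31.8, 30.3 and 31.9 CPM in Dox- tumours. Both Dox+ tumours were below the lowest Dox- tumour, and Dox- tumour 1 was the highest. The log2 fold change was -0.29 (SE 0.13, 95% interval -0.58 to 0.00, adjusted p = 0.356, edgeR), a fold of 0.818. The exact permutation test, two-sided, gave p = 0.0667, again the smallest possible. Of all genes tested, 11.5% had Dox+ values wholly below the Dox- values, and 1 of the 10 members did. BAD shares 404 exon bases with GPR137 on the opposite strand, so reads there cannot be assigned either. GPR137 was at 31.5 and 37.2 CPM in Dox+ tumours and 31.4 to 35.1 CPM in Dox- tumours (log2 fold change 0.05, adjusted p = 0.884, edgeR).

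BID is cleaved by caspase 8 and so links death receptors to mitochondria. It was at 31.3 and 43.4 CPM in Dox+ tumours, against 34.1, 31.5, 32.1 and 36.5 CPM in Dox- tumours. As with BAK1, Dox+ tumour 1 lay below and Dox+ tumour 2 above the Dox- range. Its log2 fold change came to 0.15 (SE 0.14, adjusted p = 0.674, edgeR), or 0.37 without Dox+ tumour 1 and -0.11 without Dox+ tumour 2.

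BBC3 and PMAIP1, which encode PUMA and NOXA, are classical targets of p53. BBC3 was at 10.5 and 12.3 CPM in Dox+ tumours, against 13.5, 11.9, 10.8 and 11.1 CPM in Dox- tumours (log2 fold change -0.05, SE 0.16, adjusted p = 0.919, edgeR). PMAIP1 was at 12.8 and 20.3 CPM in Dox+ tumours, against 20.9, 16.2, 17.0 and 15.3 CPM in Dox- tumours (log2 fold change -0.07, SE 0.19, adjusted p = 0.918, edgeR). For both genes Dox+ tumour 1 was the lowest of the 6 tumours and Dox+ tumour 2 lay within the Dox- range.

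BCL2L11 encodes BIM, which binds every guardian of the family and is a known target of FOXO3. It was at 27.97 and 18.4 CPM in Dox+ tumours, against 16.3, 22.9, 25.1 and 22.7 CPM in Dox- tumours. Dox+ tumour 1 was the highest of the 6 tumours, Dox- tumour 1 the lowest, and Dox+ tumour 2 fell within the Dox- range. The log2 fold change was 0.09 (SE 0.20, adjusted p = 0.883, edgeR), or -0.24 without Dox+ tumour 1 and 0.36 without Dox+ tumour 2. Among Dox- tumours its coefficient of variation was 17.5%, higher than that of 91.2% of the 4600 genes of like abundance, whose median was 8.75%. BCL2L11 shares 727 exon bases with the noncoding gene MIR4435-2HG on the opposite strand, which had 12507 counts over the 6 tumours against 3370 for BCL2L11. That neighbour was at 94.2 and 75.6 CPM in Dox+ tumours and 78.9 to 84.9 CPM in Dox- tumours. It was highest in Dox+ tumour 1, like BCL2L11, but lowest in Dox+ tumour 2, where BCL2L11 was lowest in Dox- tumour 1. The part of reads from the shared bases in either count was not tested.

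The promoter window of BCL2L11 is shown because FOXO3, a factor known to act on this gene, passed the test in these tumours. BCL2L11 itself did not pass. The FOXO3 call was lost with each Dox- tumour left out and with limma voom, and a link between the 2 genes was not tested. The window is from RefSeq on GRCh38.p14 (chr2:111120664-111120963, plus strand).
BCL2L11: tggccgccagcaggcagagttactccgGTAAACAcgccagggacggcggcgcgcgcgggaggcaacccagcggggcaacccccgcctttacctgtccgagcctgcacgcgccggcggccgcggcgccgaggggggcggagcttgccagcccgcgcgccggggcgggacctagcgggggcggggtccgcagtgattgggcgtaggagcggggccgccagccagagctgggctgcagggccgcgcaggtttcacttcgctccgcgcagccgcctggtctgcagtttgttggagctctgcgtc
The capitals mark the 1 exact match to GTAAACA, a core word of forkhead factors, searched on both strands (TGTTTAC on the other). It begins 223 bases before the start. Like the matches in BAX, it is a description of the letters and not a site shown to be bound. Of 35116 RefSeq windows of this length 3.42% held the word at least once. Windows, 15 in all, were found for 9 of the 10 members, all but MCL1. The 1 match in these 15 windows was in BCL2L11, too few to set against the share over all windows. No member window held TGACGTCA, TTTCGCGC or TGATGCAA, words for cyclic AMP response, E2F and ATF4 elements, which 1.85%, 0.515% and 0.866% of windows held.

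**Figure D3:**
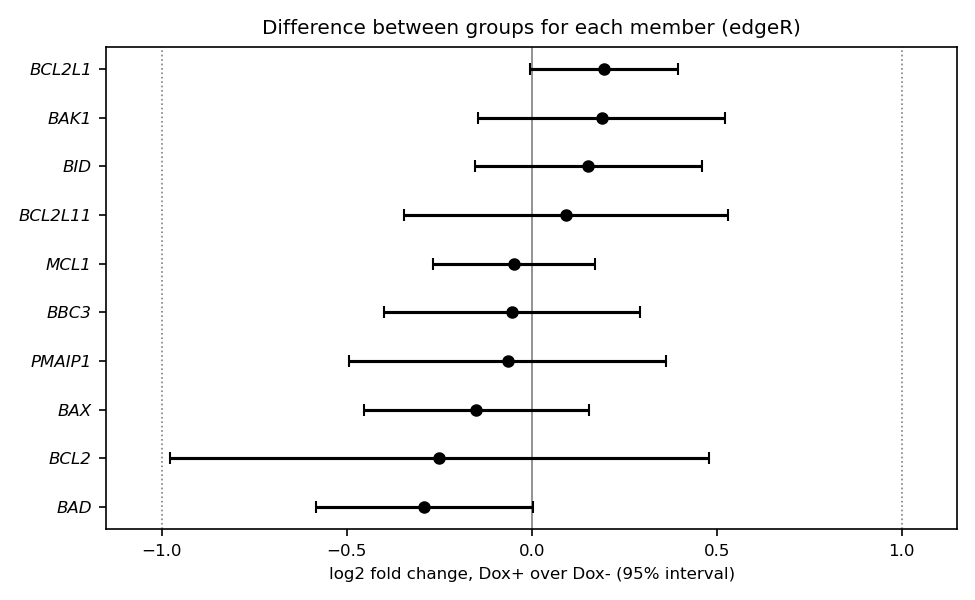
Log2 fold change of each member, Dox+ over Dox-, with its 95% interval from edgeR; dotted lines mark a 2-fold change in either direction. The interval of each member includes 0, and those of BAD and BCL2L1 end nearest to it, at 0.00 and -0.01.

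These intervals differed in width between members. Outside BCL2, the lowest bound was a fold of 0.668, for BAD, and the highest a fold of 1.44, for BAK1 and BCL2L11. Set against genes of like abundance (within 1 log2 CPM), the size of the log2 fold change of BAD exceeded that of 81.8% of them, that of BCL2L1 exceeded 68.5%, and that of MCL1 exceeded 18.1%. The spread of BCL2L1 among Dox- tumours was small, a coefficient of variation of 3.38% against a median of 6.10% for like genes.

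The Dox+ tumours differed from each other in 5 of 10 members by more than the whole Dox- range, against 39.4% of the 13697 tested genes with a mean of at least 2 CPM. For BAK1 and BID the Dox+ tumours fell on opposite sides of the Dox- range, which 12.0% of those genes did. The 5 members with the wider difference were PMAIP1, BAK1, BID, BAX and BCL2L1. PMAIP1 was 1.59-fold higher in Dox+ tumour 2 than in Dox+ tumour 1, BAK1 1.47-fold, BID 1.39-fold and BAX 1.34-fold. BCL2L1 was 1.12-fold higher, where its Dox- tumours spanned 1.08-fold. For BCL2L11 the ratio was 0.658, a smaller difference than its Dox- range of 1.54-fold. The median size of this ratio was 1.33-fold over the members and 1.18-fold over those genes. Dox+ tumour 1 was below every Dox- tumour for BAX, BAK1, BID, BAD, BBC3 and PMAIP1, and above every one for BCL2L1 and BCL2L11. How many of all genes tested did the same was not counted, so this is no result about the members. Dox+ tumour 1 is also the tumour with the high shares of mitochondrial genome, MALAT1 and NEAT1 counts, and their part in these differences was not tested.

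Ratios of counts between members do not depend on library scaling, so they were set side by side for all 45 pairs. The ratio of BCL2L1 to BAD, a guardian over a gene whose protein binds it, was 6.76 and 6.69 in Dox+ tumours, against 4.21, 5.11, 5.04 and 4.99 in Dox- tumours. Both Dox+ tumours were above all Dox- tumours, 1.39-fold on average. Since BCL2L1 was already wholly higher and BAD wholly lower in Dox+ tumours, the gap between the groups in their ratio restates those separations and is no further result. The groups did not overlap for 10 of the 45 pairs, or 22.2%. Among single genes tested, the CPM of 23.0% did not overlap in either direction. That share is not for ratios, and ratios between other genes were not counted. Of these 10 pairs 4 hold BCL2L1 and 4 hold BAD, with BCL2L1/BAD counted in both. Each member is in 9 of the 45 pairs, and both genes were already apart singly.

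**Figure D4:**
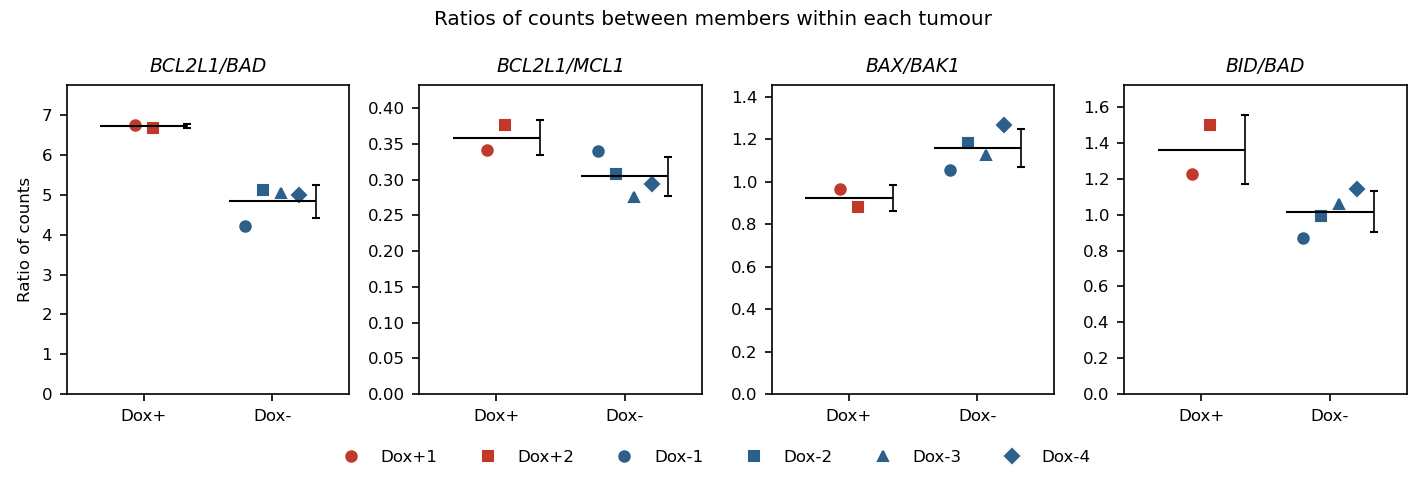
Ratio of counts between members within each tumour for 4 of the 10 pairs whose groups did not overlap, Dox+ (red) left of Dox- (blue), with the mean as a line and the SD as a bar; these 4 were chosen after their values were seen. BCL2L1/BAD and BID/BAD are higher in both Dox+ tumours, BCL2L1/MCL1 is higher by a narrow margin, and BAX/BAK1 is lower.

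The ratio between the effectors did not overlap between the groups, although neither effector passed the test. The ratio of BAX to BAK1 was 0.965 and 0.880 in Dox+ tumours, against 1.06, 1.18, 1.13 and 1.27 in Dox- tumours. BAK1 thus had more counts than BAX in both Dox+ tumours and fewer in all 4 Dox- tumours. The ratio of BID to BAD was 1.23 and 1.501 in Dox+ tumours, against 0.873, 0.991, 1.06 and 1.14 in Dox- tumours. Between the leading guardians, BCL2L1 over MCL1 was 0.341 and 0.377 in Dox+ tumours and 0.276 to 0.3397 in Dox- tumours, so Dox+ tumour 1 barely cleared Dox- tumour 1. By exact permutation, two-sided, 8 of the 45 pairs shared the smallest possible p of 0.0667, or 0.375 adjusted over the 45 pairs, so no ratio passed the test. Summed per length by role, guardians were at 172 ± 6.01 CPM per kb in Dox+ tumours (SD, n = 2) and 169 ± 5.59 CPM per kb in Dox- tumours (SD, n = 4). Effectors summed to 21.2 ± 5.13 CPM per kb in Dox+ tumours and 20.7 ± 0.739 CPM per kb in Dox- tumours. BH3-only genes summed to 38.8 ± 5.10 CPM per kb in Dox+ tumours and 41.8 ± 3.22 CPM per kb in Dox- tumours.

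The other BCL2-related genes also showed no call. Of 13 listed genes 12 were tested, BCL2L10 being at 0 counts, and 0 rose or fell at an adjusted p under 0.05 (2 at an unadjusted p under 0.05), with a median log2 fold change of -0.13. BCL2L2, which encodes the guardian BCL-W, was at 25.1 and 23.0 CPM in Dox+ tumours and 18.2 to 20.3 CPM in Dox- tumours (log2 fold change 0.34, SE 0.11, adjusted p = 0.211, edgeR). Like BCL2L1, it had Dox+ values wholly above the Dox- values, as did 11.5% of all genes tested. BNIP3L, a mitophagy receptor related to the BH3-only genes and a known hypoxia target, was at 91.3 and 106 CPM in Dox+ tumours and 105 to 177 CPM in Dox- tumours (log2 fold change -0.51, adjusted p = 0.21, edgeR). BOK, an effector-like relative of BAX, was at 36.1 and 35.2 CPM in Dox+ tumours, below the 39.5 to 42.3 CPM of Dox- tumours (log2 fold change -0.20, adjusted p = 0.401, edgeR). BCL2L12, a more distant relative, differed by -0.28 on the log2 scale (adjusted p = 0.485, edgeR).

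Downstream of the pore, 0 of 15 genes of mitochondrial channels, the apoptosome and inhibitors of apoptosis were called (3 at an unadjusted p under 0.05; median log2 fold change -0.005). BIRC3, the inhibitor of apoptosis cIAP2 and a known NF-kB target, was at 288 and 322 CPM in Dox+ tumours, against 234, 155, 183 and 183 CPM in Dox- tumours. Both Dox+ tumours were above all Dox- tumours, and the log2 fold change of 0.69 (SE 0.14) just missed the threshold (adjusted p = 0.0508, edgeR). Among the alternatives under which BIRC3 passed were DESeq2 (adjusted p = 0.000746), limma voom (adjusted p = 0.0488) and leaving out Dox- tumour 1 (adjusted p = 0.0246), and over all alternatives its adjusted p ran between 0.0004 and 0.388. CASP9, the caspase activated on the apoptosome, had a log2 difference of -0.23 and was not called (adjusted p = 0.587, edgeR).

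The p53 axis, which drives BBC3, PMAIP1 and BAX, had 0 of 16 genes called (2 at an unadjusted p under 0.05; median log2 fold change -0.07). TNFRSF10B, a death receptor gene, was at 203 and 226 CPM in Dox+ tumours and 158 to 192 CPM in Dox- tumours (log2 fold change 0.28, adjusted p = 0.245, edgeR). GDF15, a stress cytokine gene, was at 12.0 and 11.5 CPM in Dox+ tumours and 6.42 to 9.92 CPM in Dox- tumours (log2 fold change 0.46, adjusted p = 0.311, edgeR). PERP (0.25, adjusted p = 0.516) and MDM4 (0.15, adjusted p = 0.547) had the next smallest p by edgeR.

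Of 20 regulators of the members, 2 fell and 18 did not pass, where 0.591% of all genes tested were called lower. PIM2, a kinase known to phosphorylate BAD, fell to 10.6 and 11.5 CPM in Dox+ tumours, against 20.6, 18.9, 16.5 and 17.6 CPM in Dox- tumours. The groups did not overlap, and the log2 fold change was -0.74 (SE 0.14, adjusted p = 0.0425, edgeR). FOXO3, a forkhead factor known to act on BCL2L11 and BBC3, fell to 66.5 and 61.7 CPM in Dox+ tumours, against 92.4, 88.6, 92.1 and 81.9 CPM in Dox- tumours. Its log2 fold change was -0.47 (SE 0.09, adjusted p = 0.0478, edgeR), while BCL2L11 had 0.09 and BBC3 -0.05. The FOXO3 call was lost whichever tumour was left out (adjusted p 0.0617 to 0.136). The PIM2 call was lost without Dox+ tumour 1 and without each Dox- tumour (adjusted p 0.0675 to 0.154), and stood without Dox+ tumour 2 (adjusted p = 0.0471). BTRC, a ubiquitin ligase subunit, was at 51.2 and 47.4 CPM in Dox+ tumours and 35.5 to 40.3 CPM in Dox- tumours (log2 fold change 0.37, adjusted p = 0.127, edgeR). PIM1, the kinase related to PIM2, differed by -0.40 on the log2 scale (adjusted p = 0.253, edgeR). The median of the list was -0.03.

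**Figure D5:**
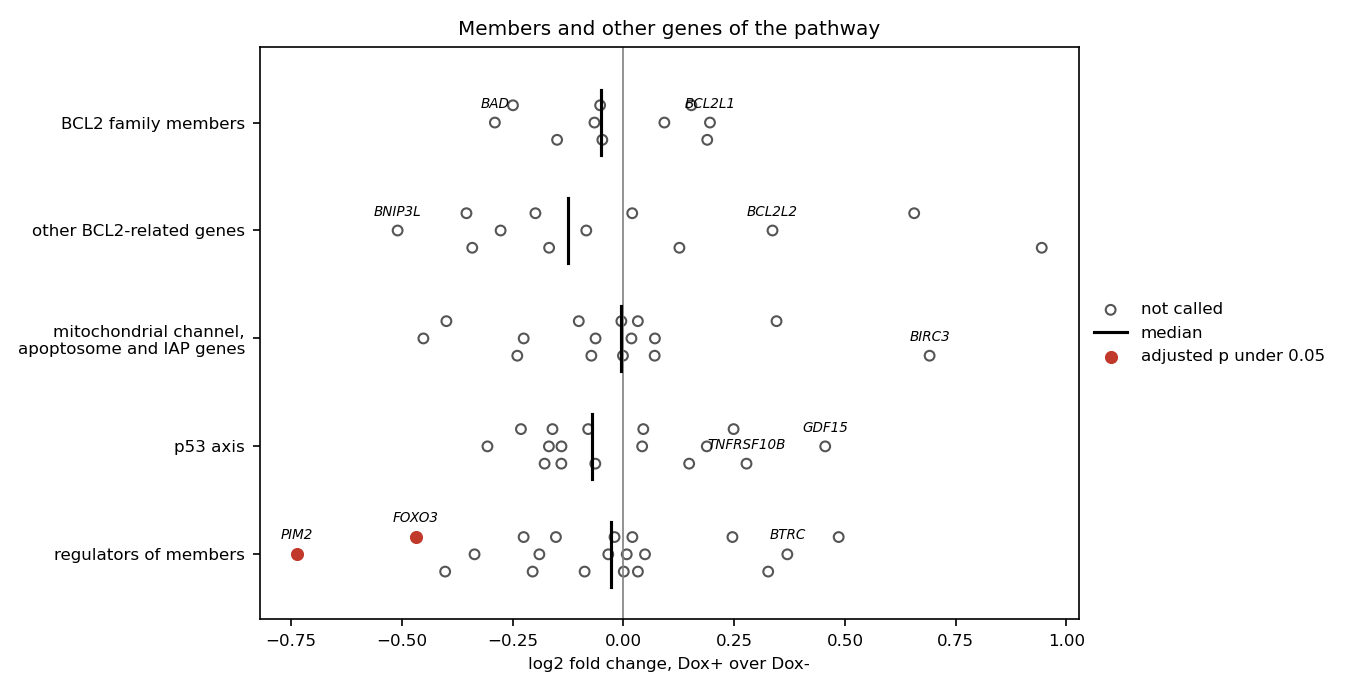
Log2 fold change, Dox+ over Dox-, of the 10 members and the tested genes of 4 pathway lists, 1 circle per gene, filled red where the adjusted p is under 0.05, with the list median as a black line. The 2 filled circles are PIM2 at -0.74 and FOXO3 at -0.47, and BIRC3 at 0.69 is open.

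The genes whose pattern over the 6 tumours was most like that of BAD, the member with the smallest p, were DBF4, ZNF787 and HMGA1. Likeness was the Euclidean distance between centred log2 CPM over the 6 tumours, among the 13825 genes whose mean log2 CPM was 1 or more, and was 0.0664 for DBF4, 0.0766 for ZNF787 and 0.0807 for HMGA1. DBF4 was at 27.4 and 32.5 CPM in Dox+ tumours, against 41.5, 34.5, 33.3 and 35.4 CPM in Dox- tumours, with the 6 tumours in the same order as for BAD. None of the 3 was called (adjusted p = 0.371, 0.34 and 0.255 by edgeR).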

How the data were processed

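RNA from 6 tumours was sequenced. The authors deposited raw counts per gene. Per the labels' protocols RNA was extracted with Trizol. The build hg19 and the tools STAR, HTSeq and limma are named per the submitters' processing notes. Not given in the sources used here are the tools' roles and versions, the annotation, the strand setting and what was done with mouse reads. Of 57798 lines 25 repeats of an identifier, with identical counts, were removed.

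Genes were tested with edgeR 4.0.16 (R 4.3.3, limma 3.58.1): TMM factors, default filterByExpr filter (21308 genes kept; all 10 members passed), quasi-likelihood F test on group, Benjamini-Hochberg adjustment over all genes, threshold 0.05. SE is the log2 fold change divided by the root of F. All tumours derive from 1 cell line, and p-values measure only the spread between these samples. Single values were also permuted exactly over 15 splits, which cannot give a p under 0.0667. Lengths are exon unions of GENCODE 29 (GRCh38), joined by identifier. The fit was tested on simulated data. No pair of tumours within a group was a duplicate (chi-square per degree of freedom 8.57 or more).

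Members and lists were chosen with earlier results of these data known. Named genes are the members, ME3, the called genes and up to 4 with the smallest p of each pathway list, and the 3 genes most like the member with the smallest p. Of the genes this rule names, 2 are not reported here. Promoter words and ratios were chosen after count data were seen. Alternatives were other scalings (DESeq2 size factors, upper quartile), no or a stricter filter, robust fitting, the DESeq2 1.42.0 and limma voom tests, a block on replicate number, a threshold of 0.1, a fit without host marker genes, and leaving out each tumour.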

Additional observations from a re-analysis of the deposited data

How the results depend on the processing

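The count of called members was 0 under each of the 16 alternatives. At an unadjusted p under 0.05 it was 2 under upper-quartile scaling, where 3089 of 21308 genes passed. It was 1 with no filter (3999 of 39242 genes), the stricter filter (2724 of 16929) and robust fitting (3009 of 21308). Without host marker genes (3042 of 21278) and without Dox- tumour 3 (2501 of 20941) it was also 1. The other fits with both Dox+ tumours gave 0. Fits that kept a single Dox+ tumour are left out of these counts, so 2 is not the highest over all 16 alternatives. The lowest adjusted p of any member was 0.157, for BAX without Dox+ tumour 2. The count of all genes called was 225; it was 770 with no low-count filter, 693 with DESeq2, 533 at a threshold of 0.1, and 72 to 562 with 1 tumour left out (lowest without Dox+ tumour 1, highest without Dox+ tumour 2; 96, 80, 83 and 133 without Dox- tumours 1 to 4). With the replicate number as a block it was 53, and the log2 fold change of MCL1 turned to 0.011. Numbers 1 and 2 are shared by Dox+ and Dox- tumours, and the labels do not say whether same-numbered tumours are paired. The deviations of same-numbered tumours from their group means had correlations of -0.103 and -0.033. With 2 Dox+ tumours the deviations of the Dox+ group mirror each other, so these correlations cannot decide on pairing. With 1 tumour left out, log2 fold changes ran over 0: BAX -0.381 to 0.049, BAK1 -0.121 to 0.444, BID -0.107 to 0.373, BBC3 -0.171 to 0.055, PMAIP1 -0.440 to 0.232, BCL2L11 -0.240 to 0.358 and MDM4 -0.001 to 0.280. Those of BCL2L1 (0.105 to 0.278), BAD (-0.389 to -0.200), MCL1 (-0.083 to -0.024) and BCL2 (-0.467 to -0.024) kept their sign. FOXO3 lost its call with upper-quartile factors (adjusted p = 0.0674), limma voom (0.0587) and the block (0.46), and PIM2 with limma voom (0.0575) and the block (0.214). BNIP3L was called with no filter (adjusted p = 0.0287). Where a fit kept a single Dox+ tumour, its spread was taken from the Dox- tumours. Scaling moved the median of all genes by at most 0.0134 (log2). The causes were not tested.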
